A study of Cavia porcellus with 12 samples.

Results

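The genes described here are 9 markers of T and B lymphocytes. *CD3D*, *CD3E*, *CD3G*, *CD4*, *CD8A* and *IL7R* stood for T cells, and *CD79A*, *CD79B* and *MS4A1* for B cells. They were chosen by name, and all 9 were rows of the deposited table of 11896 human orthologue symbols, each on a count row of its own. All 9 had therefore passed the authors' filter, which left out genes with fewer than 200 counts over all animals. *CD79B* reached that minimum only through the animals with NASH, with 54 counts over the 6 controls and 287 over the 6 animals with NASH. RNA was sequenced from the left lateral liver lobe of 12 female Dunkin Hartley guinea pigs, which were 10 weeks old on arrival. The 6 controls were fed chow for 25 weeks and had neither NASH nor fibrosis. The 6 animals with NASH were fed a high-fat diet with added sucrose and cholesterol for 25 weeks and had been picked from the high-fat group for bridging fibrosis, so that diet and disease cannot be told apart. The livers were not perfused, so that blood was not washed out.

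T cells recognise antigen through a receptor that signals through the CD3 chains, and the co-receptors CD4 and CD8 divide them into helper and cytotoxic cells. B cells signal through CD79A and CD79B, the partner chains of their surface immunoglobulin, and carry MS4A1 (CD20) on their membrane. In a healthy liver both are a small fraction of the tissue, next to many natural killer cells and resident macrophages, and in steatohepatitis lymphocytes gather in the portal tracts and the lobules.

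Library totals were between 16980274 and 33091460 counts. Values are in CPM, the counts scaled to a common total per animal after TMM normalisation for library composition, and DEGs were genes whose p-value in edgeR's quasi-likelihood test stayed under 0.05 after Benjamini-Hochberg adjustment. Hepatocyte markers were abundant in every animal, and 9 of 10 on a list of such genes were lower in NASH (4 with library size alone). Because this was whole tissue, fewer cells of a type and less RNA per cell cannot be told apart. The sources name no batch, and each sample was an animal of its own.

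The lymphocyte genes did not move as a block. All 3 B cell genes and 2 of the T cell genes, *CD8A* and *IL7R*, were higher in NASH, and *CD3E* was lower. *CD3D*, *CD3G* and *CD4* did not pass the threshold. Thus 6 of the 9 genes were DEGs, where 53.9% of all genes tested were. Of these, 5 were higher, against 27.9% of all genes, and 1 was lower, against 26.0%. On the log2 scale, the median change was 1.12 over the 9 genes, −0.11 over the 6 T cell genes and 1.49 over the 3 B cell genes, beside 0.00 over all genes. Because *CD79B* could pass the count minimum only by being high in NASH, its call adds no support to these counts, and without it 4 of 8 genes were higher, 1 was lower and the median was 0.52, or 1.3 over the other 2 B cell genes. The groups did not overlap in 4 of the 9 genes, or 3 of 8 without *CD79B*, which is near the 33.7% of all genes.

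**Figure D1:**
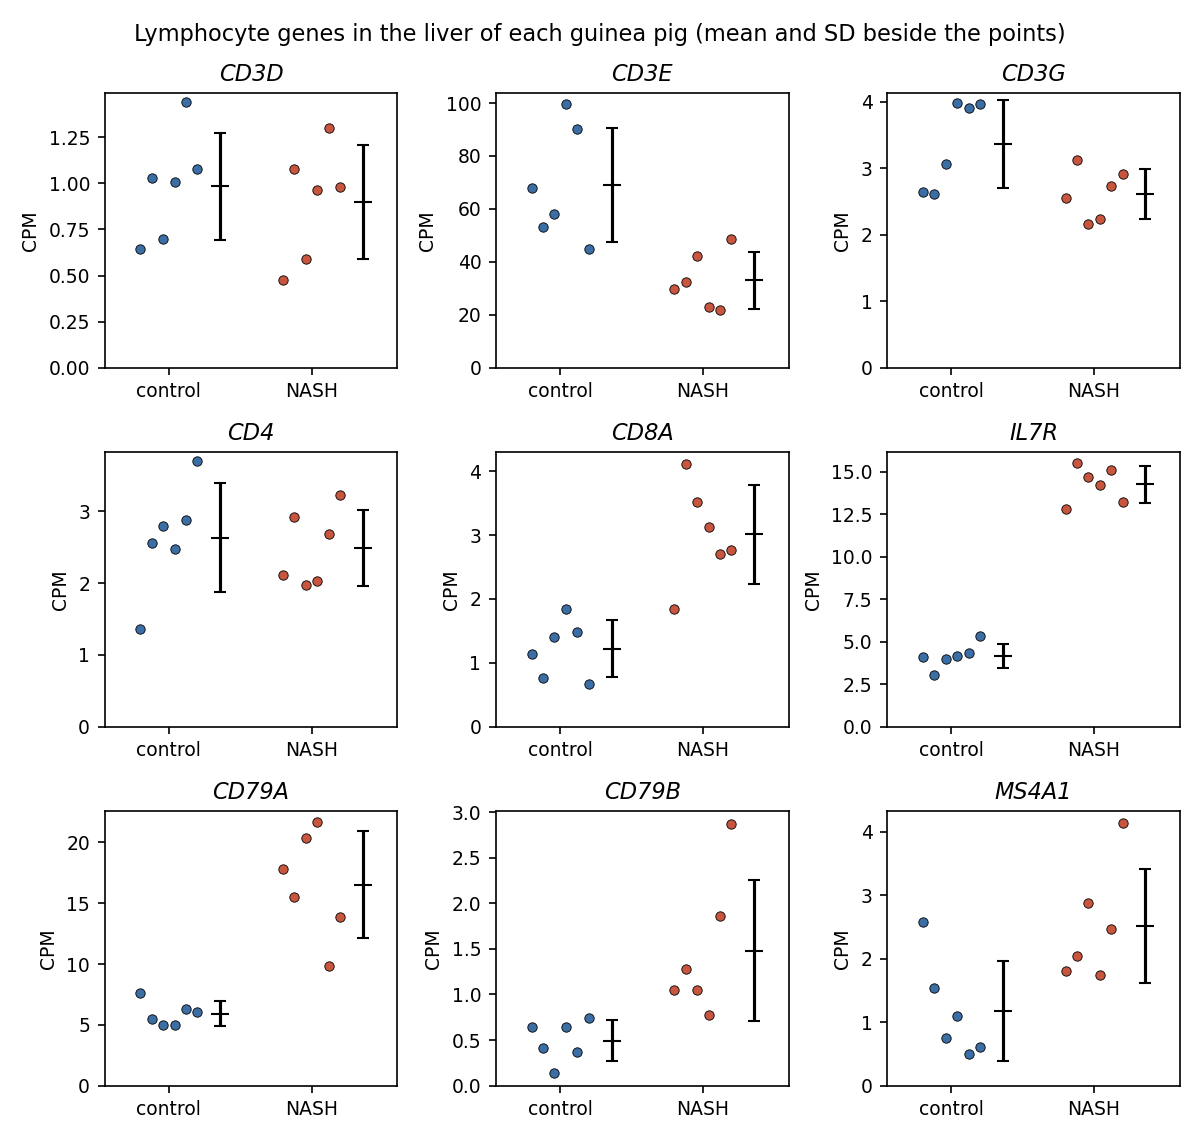
Level of each of the 9 lymphocyte genes in CPM (linear axes from 0) in the 6 controls (blue) and the 6 guinea pigs with NASH (red). Points are animals, and the bar beside them is the mean with its SD. In *CD8A*, *IL7R*, *CD79A* and *CD79B* every animal with NASH lies above every control, whereas the groups overlap in the other panels.

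The CD3 chains were examined first, since they are the signalling part of every T cell receptor. *CD3D*, the delta chain, was between 0.643 and 1.44 CPM in controls (median 1.02) and between 0.476 and 1.3 CPM in NASH (median 0.973). *CD3G*, the gamma chain, was between 2.62 and 3.99 CPM in controls (median 3.49) and between 2.16 and 3.12 CPM in NASH (median 2.64). In both genes the groups overlapped, although 3 of the 6 animals with NASH lay below every control in *CD3G*. The log2 fold change of *CD3D* was −0.13 (95% interval −0.75 to 0.48, edgeR adjusted p = 0.718), on 9 to 35 counts per control and 14 to 51 per animal with NASH. That of *CD3G* was −0.36 (95% interval −0.71 to −0.02, edgeR adjusted p = 0.0693), and *CD3G* became a DEG without control 5 (adjusted p = 0.0391) or control 10 (adjusted p = 0.0411). For *CD3D* the interval still allows a change of up to 0.75 downwards or 0.48 upwards on the log2 scale.

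*CD3E*, the epsilon chain that pairs with both of the others, was the only one of the 9 genes called lower. It was between 45 and 99.7 CPM in controls (median 62.9) and between 21.9 and 48.8 CPM in NASH (median 31.1). In NASH, 5 of the 6 animals were below every control, and the overlap came from animal 65 with NASH at 48.8 CPM and control 56 at 45 CPM. *CD3E* fell by 1.06 on the log2 scale (SE 0.24, edgeR adjusted p = 0.00242), and leaving out any animal gave values from −1.21 to −0.93.

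The *CD3E* row was set beside the rows of its partner chains. It held 668 to 2192 counts per control, where *CD3D* held 9 to 35 and *CD3G* 37 to 95. The ratio of *CD3E* to *CD3D* counts was between 41.8 and 105 in controls (median 72.8) and between 16.9 and 71.7 in NASH (median 39.9). The ratio of *CD3G* to *CD3D* counts was between 2.55 and 4.40 in controls (median 3.82) and between 2.1 and 5.36 in NASH (median 2.93). The lengths of the rows were not used, so these ratios compare animals and not the levels of the genes. On log2 CPM, the difference between *CD3G* and *CD3E* rose from −4.29 ± 0.43 to −3.57 ± 0.48 (SD, n = 6 each; two-sided exact permutation test, adjusted p = 0.0397 over 10 ratios). The smallest unadjusted p-value that 6 animals against 6 allow in this test is 0.00216. The call of this ratio was lost when single animals were left out (adjusted p up to 0.0902). For *CD3D* and *CD3E* the difference went from −6.01 ± 0.51 to −5.09 ± 0.79 (SD, n = 6 each; exact permutation test, adjusted p = 0.0588), which did not pass.

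The 3 CD3 rows carried consecutive StringTie numbers, followed by that of *MPZL2*, which encodes a cell adhesion protein of epithelia. *MPZL2* was between 91.8 and 121 CPM in controls and between 48.1 and 73.8 CPM in NASH, without overlap, and its log2 fold change was −0.73 (SE 0.11, edgeR adjusted p = 0.000104). *CD3E* and *MPZL2* had a Pearson's correlation of 0.877 over the 6 controls and of −0.351 over the 6 animals with NASH. For *CD3D* and *MPZL2* these values were 0.433 and 0.622, and for *CD3G* and *MPZL2* they were 0.498 and −0.193. *CD3E* had values of 0.682 and 0.331 with *UBE4A*, whose StringTie number comes shortly before those of the CD3 rows. With *CD8A* it had 0.889 and 0.176. Whether reads of another transcript were counted in the *CD3E* row was not tested, and its level is given here as that of the row.

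**Figure D2:**
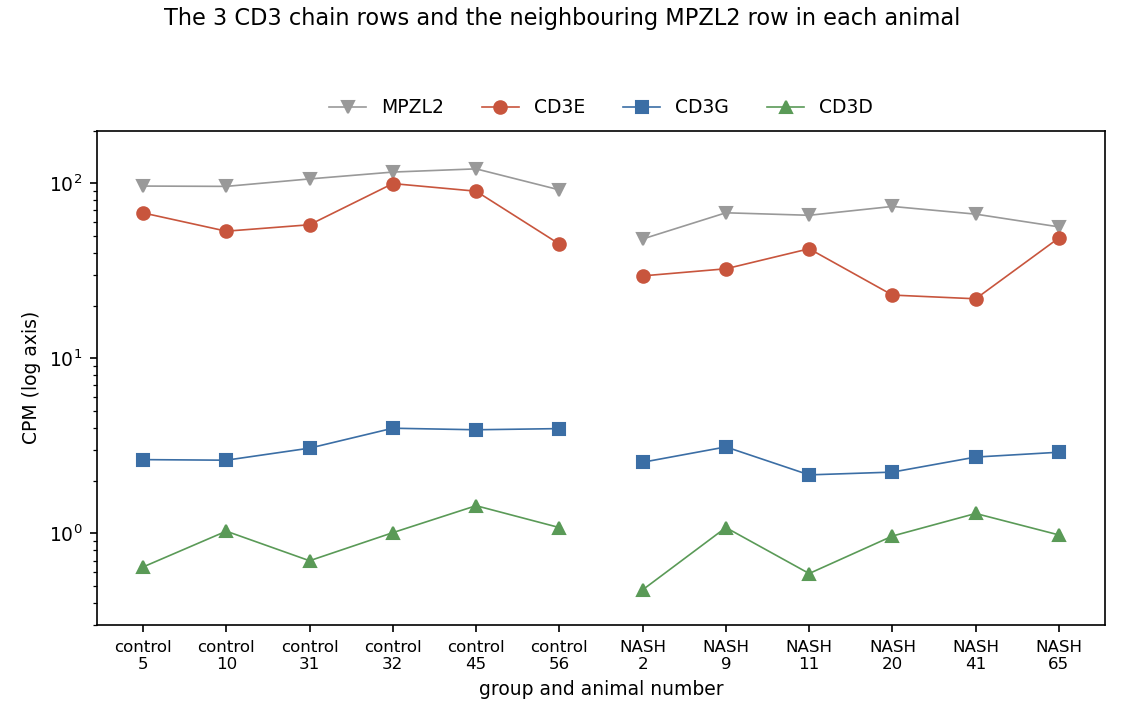
Level of the *CD3D*, *CD3G*, *CD3E* and *MPZL2* rows in each animal, in CPM on a log axis. The lines join the rows of 1 gene within a group, and the order of the animals has no meaning. *CD3E* lies between 21.9 and 99.7 CPM, and *CD3D* and *CD3G* lie at or below 3.99 CPM in all 12 animals.

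A further chain of the T cell receptor complex and other T cell genes were compared whatever their value. *CD247*, the zeta chain, was at 1.76 ± 0.285 CPM in controls and 2.04 ± 0.311 CPM in NASH (SD, n = 6 each). Its log2 fold change was 0.22 (95% interval −0.13 to 0.57, edgeR adjusted p = 0.281). *LCK*, the kinase that phosphorylates the CD3 chains, was at 4.15 ± 0.791 and 4.5 ± 0.746 CPM (SD, n = 6 each), with a log2 fold change of 0.11 (edgeR adjusted p = 0.554). *CD2*, an adhesion receptor of T and natural killer cells, was at 2.02 ± 0.546 and 2.09 ± 0.325 CPM (SD, n = 6 each), with a log2 fold change of 0.04 (edgeR adjusted p = 0.884). None of these 3 genes passed the threshold. With library size alone in place of TMM factors, which moves the median change over all genes to 0.48 on the log2 scale, *CD247* (0.68), *LCK* (0.58) and *CD2* (0.50) were called higher, which is 0.21, 0.10 and 0.03 above that median. Under that scaling, where 7603 of all genes were called higher and 911 lower instead of 3318 and 3093, *CD3D* (0.33) and *CD3G* (0.10) changed sign without being called, and *CD3E* (−0.60) was still called lower.

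The co-receptors differed from each other. *CD4*, which helper T cells carry and which monocytes and macrophages of several species carry as well, was between 1.36 and 3.70 CPM in controls (median 2.68) and between 1.97 and 3.22 CPM in NASH (median 2.39). All 6 animals with NASH lay within the range of the controls. Its log2 fold change was −0.08 (95% interval −0.55 to 0.38, edgeR adjusted p = 0.766), and with library size alone it was 0.38, again not called.

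*CD8A*, a chain of the co-receptor of cytotoxic T cells, was between 0.673 and 1.84 CPM in controls (median 1.27) and between 1.84 and 4.12 CPM in NASH (median 2.94). The lowest animal with NASH, number 2, was just above the highest control, number 32. The log2 fold change of *CD8A* was 1.29 (SE 0.26, edgeR adjusted p = 0.00111), a 2.44-fold rise, on 10 to 40 counts per control and 54 to 141 per animal with NASH. The log2 ratio of *CD8A* to *CD4* went from −1.09 ± 0.78 in controls to 0.25 ± 0.44 in NASH (SD, n = 6 each; exact permutation test, adjusted p = 0.00541). The ratio was higher in each of the 6 animals with NASH than in any control. The margin was narrow, with −0.21 in animal 65 with NASH against −0.23 in control 5. The scaling between libraries cancels in it, apart from the prior count of 2 added to each gene.

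*IL7R*, the alpha chain of the receptor for interleukin 7, a survival factor of naive and memory T cells, rose with the lowest SE of the 9 genes. It was between 3.03 and 5.32 CPM in controls (median 4.12) and between 12.8 and 15.5 CPM in NASH (median 14.5). The groups were far apart, and the 6 animals with NASH differed from each other by a coefficient of variation of 7.43%, of which counting error alone gives 4.67%. The rise was 3.44-fold (log2 fold change 1.78, SE 0.11, edgeR adjusted p = 1.75e-07), and leaving out any animal gave log2 values from 1.71 to 1.86.

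Genes that work with *IL7R* were compared next. *IL2RG*, the common gamma chain that completes the receptor, rose by 0.44 on the log2 scale, from 7.20 ± 1.17 to 9.75 ± 0.519 CPM (SD, n = 6 each; edgeR adjusted p = 0.00338), on a row that carries 3 symbols. *JAK1*, a kinase bound to the receptor, rose by 0.53 on the log2 scale (edgeR adjusted p = 0.000148). The ligand *IL7* fell by 0.42 (edgeR adjusted p = 0.0272), whereas with library size alone it stood at 0.06 and was not called. *IL15*, the ligand of a related receptor, fell by 1.51 (edgeR adjusted p = 1.21e-06) without overlap between the groups. Of the 17 genes listed for this pathway 10 were in the table, 3 of them higher and 3 lower, which is near the 27.9% and 26.0% of all genes, and their median change on the log2 scale was −0.26. These 10 genes stand on 9 rows, since *STAT5A* and *STAT5B*, transcription factors that the receptor activates, share 1 row (log2 fold change −0.26, edgeR adjusted p = 0.0589), which was called lower by DESeq2 and without control 31, for 4 lower rows in all.

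The B cell genes were each higher in NASH, with the limit given above for *CD79B*. *CD79A*, the alpha partner chain of the B cell receptor, was between 4.96 and 7.65 CPM in controls (median 5.75) and between 9.85 and 21.7 CPM in NASH (median 16.6). The groups did not overlap, and the lowest animal with NASH was number 41. This was a 2.80-fold rise (log2 fold change 1.49, SE 0.18, edgeR adjusted p = 2.44e-05).

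*CD79B*, the beta partner chain, was between 0.140 and 0.740 CPM in controls (median 0.526) and between 0.779 and 2.87 CPM in NASH (median 1.17). The groups stayed apart by a narrow margin. These values rest on 3 to 14 counts per control and 25 to 82 per animal with NASH, and counting error alone gives a coefficient of variation of 34.1% in controls out of the 45.8% observed. The log2 fold change was 1.62 (SE 0.41, edgeR adjusted p = 0.00445).

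*MS4A1*, the CD20 antigen of mature B cells, was between 0.494 and 2.57 CPM in controls (median 0.923) and between 1.75 and 4.13 CPM in NASH (median 2.26). Control 5 at 2.57 CPM was above 4 of the 6 animals with NASH, so that the groups overlapped. The log2 fold change was 1.12 (SE 0.38, edgeR adjusted p = 0.0242), the highest adjusted p-value of the 5 rises. The call was lost without control 31 (adjusted p = 0.052) and without animal 65 with NASH (adjusted p = 0.0605).

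**Figure D3:**
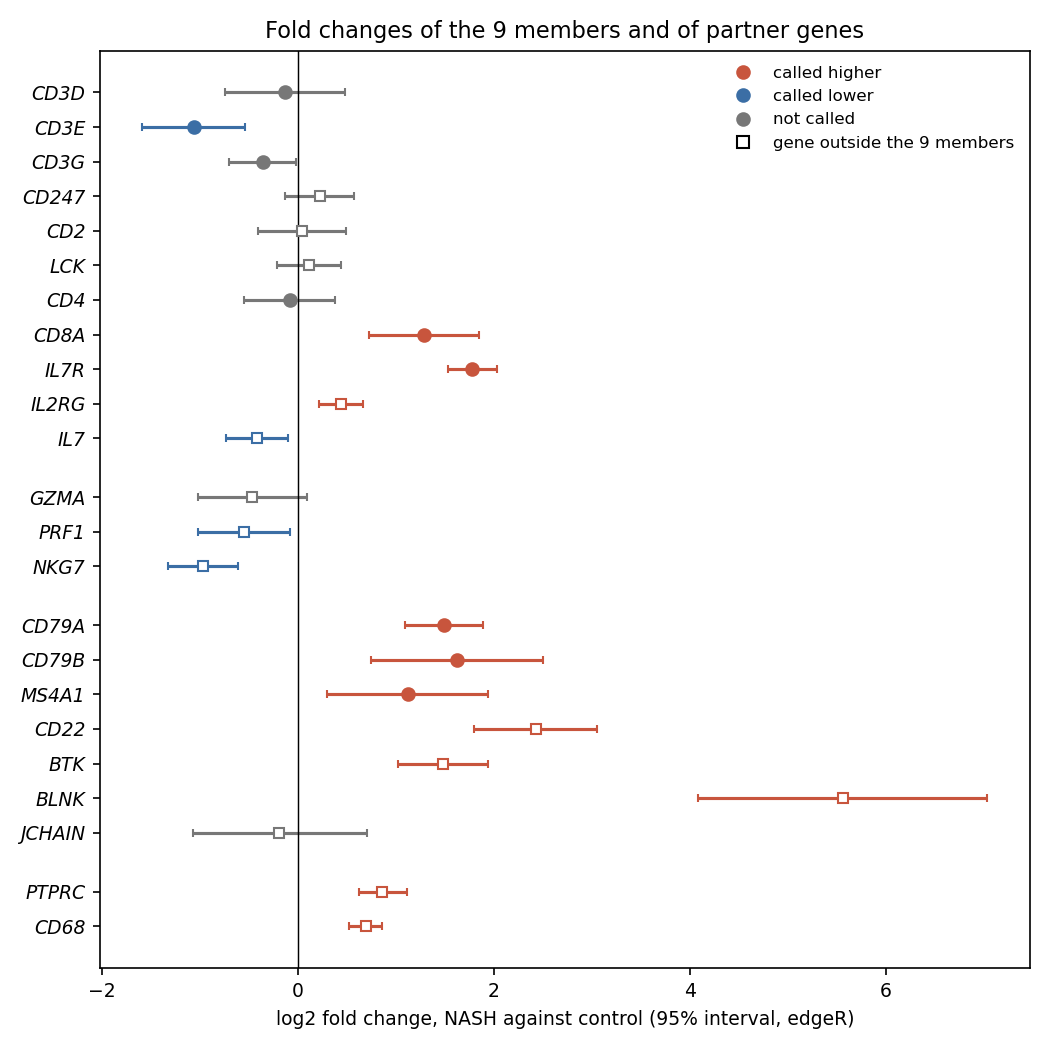
Log2 fold change in NASH against controls, with its 95% interval from edgeR, of the 9 lymphocyte genes (filled circles) and of partner genes (open squares). Red marks genes called higher, blue genes called lower and grey genes not called. The 3 B cell genes lie between 1.12 and 1.62, whereas *CD3D*, *CD3G*, *CD247*, *CD2*, *LCK* and *CD4* lie between −0.36 and 0.22. The position of *BLNK* depends on the fit, since 5 controls had no count.

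The ratio of the B cell genes to each other showed no difference beyond the spread between animals. The log2 ratio of *MS4A1* to *CD79A* was −2.45 ± 0.78 in controls and −2.70 ± 0.72 in NASH (SD, n = 6 each; exact permutation test, adjusted p = 0.633). That of *CD79B* to *CD79A* was −3.50 ± 0.64 and −3.49 ± 1.0 (SD, n = 6 each; exact permutation test, adjusted p = 0.991). With the deposited rlog values in place of log2 CPM both ratios were lower in NASH, with differences of −0.48 and −0.51 (exact permutation test, adjusted p = 0.0144 each). The pairs varied differently within the 6 animals with NASH. *CD79A* and *CD79B* had a Pearson's correlation of −0.757 and *CD79B* and *MS4A1* one of 0.815. Among controls these values were 0.447 and 0.297. They describe 6 libraries each and share their scaling.

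Further members of B cell receptor signalling rose. *CD22*, an inhibitory co-receptor of B cells, went from 1.5 ± 0.662 to 8.06 ± 1.45 CPM (SD, n = 6 each), a change of 2.43 on the log2 scale (SE 0.29, edgeR adjusted p = 1.75e-05). *BTK* and *SYK*, kinases of the pathway that myeloid cells also use, rose by 1.48 and 1.64 on the log2 scale (edgeR adjusted p = 7.6e-05 and 5.45e-06). *BLNK*, the adaptor that links them, had no count in 5 controls, 6 counts in control 56 and 56 to 111 counts in NASH. *CD81*, a co-receptor component found on most cells, fell by 1.06 (edgeR adjusted p = 2.78e-06). Of the 24 genes listed, 20 were in the table, 13 higher and 1 lower, beside 27.9% and 26.0% of all genes, and their median change on the log2 scale was 0.61. In this list 3 genes, *BLNK* among them, reached the count minimum only through the animals with NASH, and without these 10 of 17 were higher, 1 was lower and the median was 0.43. *PAX5* was not among the genes tested.

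Of 22 further B cell identity genes 9 were in the table, with 4 called higher and 0 lower by edgeR, beside 27.9% and 26.0% of all genes. By DESeq2, limma-voom and at an unadjusted p-value under 0.05, 0 were lower as well, but 1, *BCL6*, was lower without control 31. With library size alone 8 were higher, where 7603 of 11896 genes were. The median change on the log2 scale was 0.81. Without the genes that reached the count minimum only through NASH, 3 of 6 were higher and the median was 0.70. The 4 called higher by edgeR were *CD37* (log2 fold change 1.19), *FCRL1* (1.15), *POU2AF1* (1.1) and *CIITA* (1.05). *CD37* is a membrane protein of mature B cells that is also on the pan-leukocyte list. *POU2AF1*, a B cell transcriptional coactivator, had 96 counts over the controls, and *CIITA* is the regulator of MHC class II genes. Plasma cell genes were compared as well. *JCHAIN*, which joins secreted immunoglobulins, was at 8.64 ± 7.37 CPM in controls and 7.54 ± 1.80 CPM in NASH (SD, n = 6 each), with a log2 fold change of −0.19 (95% interval −1.07 to 0.70, edgeR adjusted p = 0.719). *PRDM1*, a regulator of plasma cell differentiation, and *DERL3* rose by 1.74 and 1.81, while *XBP1* and *SDC1*, which hepatocytes also express, fell by 0.91 and 0.63, the latter not called with library size alone (−0.15). Of 18 listed genes 11 had a row, of which 4 rose and 3 fell around a median of 0.01, near the shares of all genes. With library size alone 7 were higher and 1 was lower, where 7603 and 911 of 11896 genes were.

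*PTPRC* (CD45), which all leukocytes carry, was used as a reference within each animal. It rose by 0.86 on the log2 scale, from 26.3 ± 4.88 to 47.9 ± 3.08 CPM (SD, n = 6 each; SE 0.11, edgeR adjusted p = 3.87e-05). The log2 ratio of *CD3E* to *PTPRC* fell by 1.95, from 1.35 ± 0.59 to −0.59 ± 0.52 (SD, n = 6 each; exact permutation test, adjusted p = 0.00541). That of *CD79A* differed by 0.56, from −2.13 ± 0.44 to −1.58 ± 0.39 (SD, n = 6 each; exact permutation test, adjusted p = 0.0649), which did not pass, and it did pass without control 5 or animal 41 with NASH (lowest adjusted p = 0.0108).

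A further 11 genes were set against *PTPRC* after these values had been seen. Relative to *PTPRC*, *CD3D* fell by 1.02, *CD3G* by 1.22, *LCK* by 0.76 and *CD4* by 0.93 on the log2 scale, without overlap between the groups (exact permutation test, adjusted p = 0.00397 each over 11 ratios). *CD2* fell by 0.79 (exact permutation test, adjusted p = 0.0068) and *CD247* by 0.67 (adjusted p = 0.00893). *IL7R* rose by 0.89 and *CD22* by 1.62 relative to *PTPRC*, again without overlap (adjusted p = 0.00397 each). The ratios of *CD8A* (0.41, adjusted p = 0.245), *CD79B* (0.57, adjusted p = 0.245) and *MS4A1* (0.31, adjusted p = 0.541) did not pass in the same exact test, and with the deposited rlog values these 3 differences were negative (−0.19, −0.29 and −0.27), that of *CD79B* being called lower (adjusted p = 0.0238). The 6 falls and 2 rises called on log2 CPM held when any animal was left out. All 11 ratios share *PTPRC*, which itself rose by 0.86 on the log2 scale, so they are not independent tests. *CD3D*, *CD4*, *CD2*, *LCK* and *CD247* had uncalled log2 fold changes of their own between −0.13 and 0.22, so their falls largely repeat that rise. The ratio of *CD4* to *CD68*, a macrophage gene, fell by 0.74 (exact permutation test, adjusted p = 0.0397), and it was lost when single animals were left out (adjusted p up to 0.0866).

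**Figure D4:**
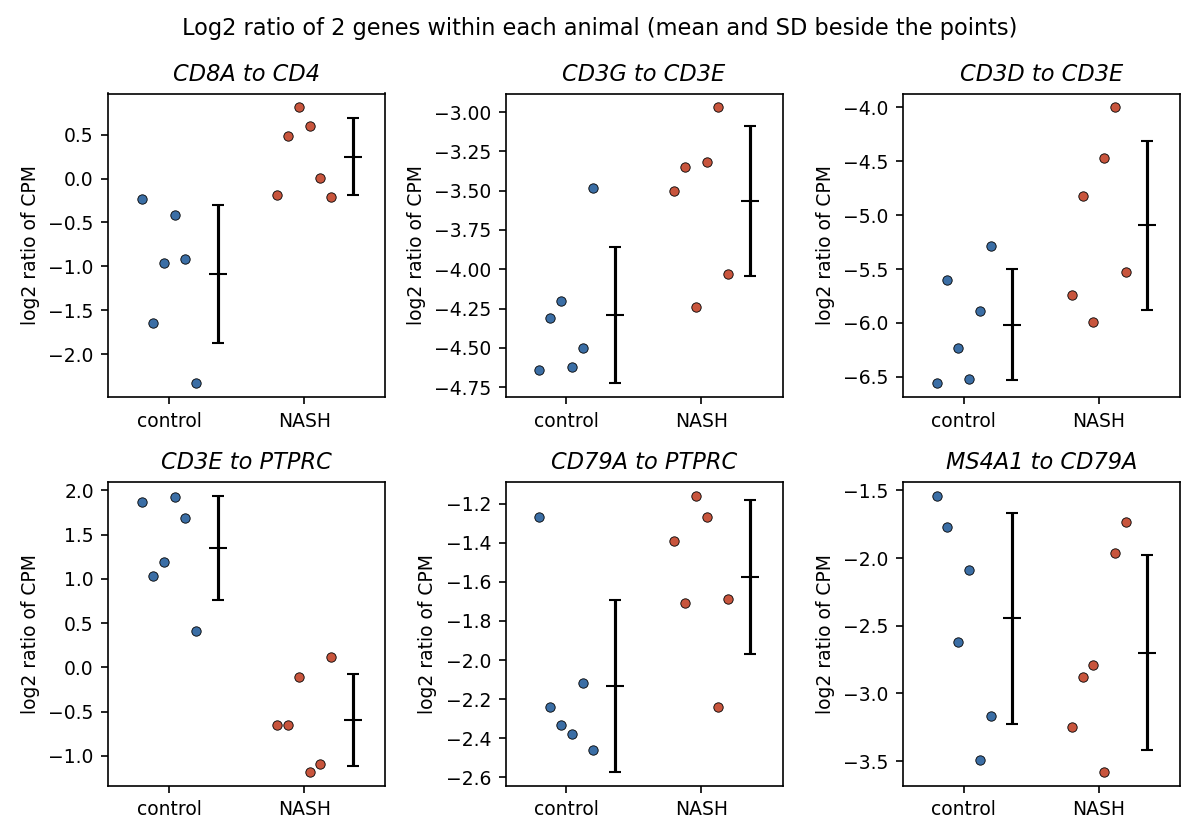
Log2 ratio of CPM between 2 genes within each animal, for 6 of the ratios compared, in controls (blue) and guinea pigs with NASH (red), with the mean and SD beside the points. The groups do not overlap for *CD8A* to *CD4* and for *CD3E* to *PTPRC*. In *CD79A* to *PTPRC*, control 5 (−1.27) lies among the higher animals with NASH, and animal 41 with NASH (−2.24) lies among the other controls.

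The counts of the wider T cell lists depended on the scaling. Of 25 genes listed for T cell receptor signalling 12 were in the table, 4 higher and 2 lower, beside 27.9% and 26.0% of all genes, and their median change on the log2 scale was 0.18. Without the 4 genes that reached the count minimum only through NASH, *GRAP2* among them, 1 of 8 was higher, 2 were lower and the median was 0.09. *GRAP2* (3.17) and *LCP2* (0.76), adaptors that other leukocytes share, rose. *TXK*, a kinase of the TEC family, fell by 3.10, from 57.1 ± 26.7 to 6.64 ± 3.29 CPM (SD, n = 6 each), and *LAG3*, an inhibitory receptor, by 1.41. Of 25 further T cell identity genes 10 had a row, of which 2 rose and 4 fell around a median of −0.04 (1, 4 and −0.47 over the 7 genes left without those that passed only through NASH, *CCR6* among the latter). *CCR6* (0.97), a chemokine receptor, rose, and *TBX21*, the T helper 1 factor, fell by 0.59, although it was not called with library size alone (−0.12). With library size alone these lists held 9 higher and 2 lower, and 4 higher and 1 lower, with medians of 0.65 and 0.43 beside the 0.48 of all genes.

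Cytotoxic and natural killer cell genes were mostly lower in NASH. Of 26 listed, 14 had a row, with 8 lower and 1 higher, beside 26.0% and 27.9% of all genes, and their median change on the log2 scale was −0.58. At a threshold of 0.01, 5 were lower, where 2275 of 11896 genes were. Against an absolute log2 fold change of 1, 0 were lower, where 247 of all genes were. *NKG7*, a granule protein, fell from 7.82 ± 1.31 to 4.0 ± 1.04 CPM (SD, n = 6 each), by 0.97 on the log2 scale (edgeR adjusted p = 0.000315) and without overlap. *PRF1*, which encodes perforin, fell by 0.55 (edgeR adjusted p = 0.0487; −0.09 and not called with library size alone), and *XCL1*, whose row carries 2 symbols, by 1.25. *GZMA*, a granzyme, was at 5.38 ± 1.61 and 3.90 ± 1.37 CPM (SD, n = 6 each) and did not pass (edgeR adjusted p = 0.146). The gene that rose was *TYROBP* (2.04), a signalling adaptor that myeloid cells express as well. With library size alone 2 genes were lower, 2 were higher and the median was −0.12, which is still below the 0.48 of all genes.

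Markers of other cells were compared too, beside the 27.9% of all genes called higher and the 26.0% called lower. Among 17 pan-leukocyte genes, 16 were higher in NASH (15 of 16 without *ITGA4*, which passed the count minimum only through NASH), and their summed level was between 143 and 273 CPM in controls and between 458 and 557 CPM in NASH. Among 15 macrophage genes, 7 were higher and 2 lower (11 and 1 with library size alone; 6 and 2 of 14 without *TREM2*, which passed the count minimum only through NASH), with sums of 567 to 1070 CPM in controls and 1310 to 1730 CPM in NASH. Of 9 erythroid genes 8 were higher, with sums of 97.9 to 232 CPM and 543 to 4730 CPM, and *SLC4A1* had no count in at least 1 control. The count minimum was reached only through NASH by 4 of these 9 genes, and without them 4 of 5 were higher. Of 6 dendritic cell genes 4 were higher, or 3 of 5 without *FLT3*, with sums of 10.4 to 27.5 CPM in controls and 49.8 to 66.2 CPM in NASH. *CD83* alone went from a mean of 6.55 to 34.5 CPM, and *CLEC9A* (−0.21) and *BATF3* (0.33) were not called. The summed markers *FLT3* and *CLEC9A* overlapped between the groups (2.48 to 5.35 CPM in controls, 3.99 to 5.79 CPM in NASH). Of 4 neutrophil genes 3 were higher, or 2 of 2 without *S100A8* and *S100A9*, with sums of 2.06 to 5.65 CPM in controls and 6.8 to 14.5 CPM in NASH. *FLT3*, *S100A8* and *S100A9* passed the count minimum only through NASH and had no count in at least 1 animal. The T cell markers had counts in every animal, as had the 4 of 6 B cell markers in the table. The part of these cells in the levels of the lymphocyte genes was not tested.

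**Figure D5:**
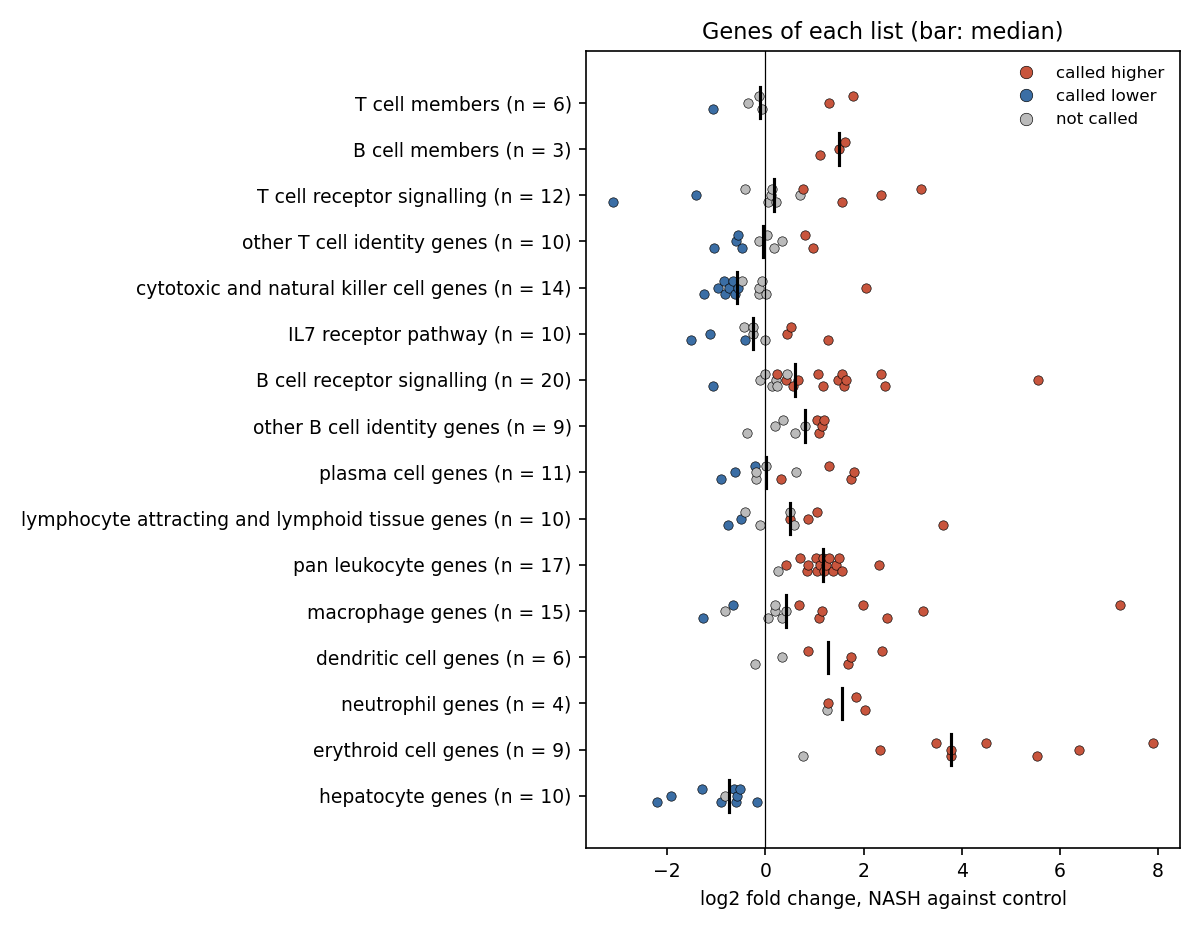
Log2 fold change in NASH against controls of each gene in the table, by list, with the median as a black bar and the number of genes beside the name. Red marks genes called higher, blue genes called lower and grey genes not called. The B cell lists lie to the right (medians of 1.49, 0.61 and 0.81), the T cell lists around 0 and the cytotoxic list to the left (−0.58).

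The animals also differed within their groups, and the genes that varied most like each member were sought over the 12 animals after centring log2 CPM within each group, among genes with a mean of at least 1 CPM. These correlations are a description of 12 libraries with shared scaling. *CD4* was most like *SLAMF8* (Pearson's r = 0.942), *RAC2* (0.934), *IKZF1* (0.928), *MRC1* (0.928) and *ARHGAP25* (0.919), genes of leukocytes and, in the case of *MRC1*, of macrophages and sinusoidal endothelium. Its correlation with the summed pan-leukocyte genes was 0.805, where *MS4A1* had −0.697, *CD79A* −0.489 and *CD79B* −0.218. *IL7R* was most like *ETS1* (0.927), a transcription factor of lymphocytes and endothelium. *CD3E* was most like *WNT9A* (0.958), *CLPX* (0.924) and *SHMT1* (0.915). *CD3E* correlated with *CD8A* at 0.573 (0.889 over the 6 controls), with *CD3G* at 0.259 and with *CD3D* at −0.069, while *CD3D* with *CD3G* gave 0.555, *CD3D* with *CD4* 0.598 and *CD3G* with *CD4* 0.719.

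For the remaining members the closest genes were *BCL11A* for *CD3D* (0.856), *TOLLIP* for *CD3G* (0.887), *EIF4G1* for *CD8A* (0.952), *CASP8AP2* for *CD79A* (0.913), *SLC25A37* for *CD79B* (0.886) and *MBD2* for *MS4A1* (0.899). *SLC25A37* imports iron into mitochondria and is abundant in erythroid cells, and *CD79B* had a correlation of 0.689 with the summed erythroid genes, 0.681 with the neutrophil genes and 0.627 with the hepatocyte genes. The next genes after *SLC25A37* were *LBP* (0.877) and *ACKR1* (0.863). *CD79A* had a correlation of −0.507 with the erythroid genes.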

How the data were processed

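The authors trimmed reads with Trimmomatic 0.38.0, mapped them with HISAT2 2.1.0 to Cavpor3.0, ignored multimapped reads and quantified loci with StringTie 1.3.6. They deposited raw counts per locus and log2 values made with the rlog transformation of DESeq2, under human orthologue symbols. The count table has no symbols, so the rlog transformation was repeated until each symbol had its count row (largest difference from the deposited values 8.35e-07). Counts were tested with edgeR 4.0.16 in R 4.3.3 (TMM factors, library size from the whole table, robust glmQLFit and glmQLFTest), with Benjamini-Hochberg adjustment over 11896 symbols, the procedure being tested on simulated data. The study used DESeq2, which was an alternative here (DESeq2 1.42.0), beside limma-voom (limma 3.58.1), other scalings and filters, a stricter threshold (0.01), testing for more than a 1-unit log2 change and leaving out each animal. Ratios used log2 CPM with a prior count of 2 and exact permutation tests over 924 assignments. A gene was taken to reach the minimum of 200 counts only through NASH where the controls held fewer than 100. Genes with at least 1 CPM on average were compared for likeness. Named genes were all members, fixed partner genes, and in each list up to 4 of the strongest rises and 2 of the strongest falls, and some of these genes are not reported here. Members and lists were chosen with earlier results of these data known. The neighbourhood of the rows follows their StringTie numbers. Figures were drawn with matplotlib 3.10.9.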

Additional observations from a re-analysis of the deposited data

Results flagged for a closer look

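In 7 of 74 groups of 6 animals, over 27 genes and 10 ratios on log2 CPM, 1 animal lay far from the others, where chance gives about 1 in 20. Control 5 was lowest in *CD2*, at 0.01 against 1.12 to 1.31 in the other controls, and highest in the ratio of *CD79A* to *PTPRC*, at −1.27 against −2.46 to −2.12. Control 31 was lowest in *CCL21*, at 4.12 against 5.18 to 5.69. Control 56 was the only control with counts of *BLNK* (−1.05 against −3.69), a flag that any count would give where the other controls have none. It was also highest in the ratio of *CD3G* to *CD3E*, at −3.48 against −4.64 to −4.20. Among the animals with NASH, number 20 was lowest in *IL2RG* (3.14 against 3.28 to 3.35) and number 65 was highest in *NKG7* (2.62 against 1.66 to 1.96).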

How the results depend on the processing

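The 5 rises and the fall of *CD3E* were called with RLE and upper-quartile factors, library size alone, DESeq2, limma-voom, the other choices of genes tested and without the 2 shallowest libraries, both controls, a choice made after seeing the data. At a threshold of 0.01 the rise of *MS4A1* (1.12) was lost. Against an absolute log2 fold change of 1, 2 members stayed higher and 0 lower by edgeR, and *CD3E* (−1.06), *CD8A* (1.29), *CD79B* (1.62) and *MS4A1* (1.12) were lost. With library size alone the uncalled *CD3D* (0.33), *CD3G* (0.10) and *CD4* (0.38) changed sign, as did *CD4* (0.00) when every row with at least 1 count was tested. With each animal left out, *CD3D* ranged from −0.27 to 0.02, *CD3G* from −0.43 to −0.31, *CD4* from −0.21 to 0.03 and *MS4A1* from 0.92 to 1.48, and 1 to 2 members were lower. In the ratios, these ranges were −0.24 to 0.25 for *CD79B* to *CD79A*, 0.60 to 0.89 for *CD3G* to *CD3E*, 0.70 to 1.1 for *CD3D* to *CD3E*, 0.47 to 0.73 for *CD79A* to *PTPRC* and −0.94 to −0.61 for *CD4* to *CD68*. With a prior count of 0.5 the ratio of *CD4* to *CD68* (−0.74) was lost. With a prior count of 5 that of *CD79B* to *CD79A* was −0.16 and that of *CD3D* to *CD3E* (0.94) was called. The rlog values, which shrink low counts, gave −0.48 for *MS4A1* to *CD79A* and 0.64 for *CD3D* to *CD3E*, both called, −0.51 for *CD79B* to *CD79A*, also called, and −0.19, −0.29 and −0.27 for *CD8A*, *CD79B* and *MS4A1* to *PTPRC*, of which *CD79B* was called. The cause was not tested otherwise. Depth limits *CD79B* and *CD3D* most, at medians of 9 and 18 counts per control. No paired analysis was possible because the groups share no animal number.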

Other observations

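Genes that attract lymphocytes were also compared. Of 20 listed, 10 had a row, and of these 4 were higher and 2 lower, beside 27.9% and 26.0% of all genes (3 of 9 higher without *CCL20*, 7 and 0 with library size alone, 0 lower when every row with a count was tested and 1 to 3 lower with single animals left out, the lowest without control 32, control 45 or animal 20 with NASH), and their median change on the log2 scale was 0.51. *CCL20*, the ligand of *CCR6*, had the largest change of the list. It had 0 to 6 counts per control and 0.170 ± 0.165 CPM in controls against 2.09 ± 0.491 CPM in NASH (SD, n = 6 each), without overlap, and its fitted log2 fold change was 3.62 (edgeR adjusted p = 5.34e-05). It reached the count minimum only through the animals with NASH. *CCL19* and *CCL21*, the chemokines of lymphoid tissue, were at 1.78 ± 0.835 and 39.6 ± 12.5 CPM in controls and at 2.64 ± 1.26 and 56.5 ± 15.4 CPM in NASH (SD, n = 6 each) and did not pass (edgeR adjusted p = 0.175 and 0.105), though both did with library size alone (1.06 and 0.99). *CXCL9*, which attracts activated T cells, fell by 0.77 (edgeR adjusted p = 0.0245), and was not called with library size alone (−0.30). *CXCL10* stood at −0.42 (edgeR adjusted p = 0.107). *SELP*, an adhesion receptor of endothelium and platelets, rose by 1.05 (edgeR adjusted p = 0.0017), and *TNFSF13B*, the B cell survival factor BAFF, by 0.87 (edgeR adjusted p = 0.0292). *FOXP3*, the factor of regulatory T cells, was at 4.60 ± 0.656 and 4.22 ± 0.245 CPM (SD, n = 6 each), with a log2 fold change of −0.13 (95% interval −0.36 to 0.11, edgeR adjusted p = 0.349).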
